A study of Homo sapiens with 4 samples.

Results

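The genes described here are 10 mesenchymal transition factors and markers, which were SNAI1, SNAI2, TWIST1, TWIST2, ZEB1, ZEB2, VIM, CDH2, FN1 and CDH11. They were taken by symbol from a count table of 40205 genes. The rule itself used no value of the table, but the 10 genes were chosen with earlier results of these data known. All 10 symbols were in the table. After a filter on low counts 9 of them were among the 16323 genes tested, and CDH11 was not. The 9 passed with counts in all 4 libraries, so none entered through 1 group alone.

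The cells were SKOV3, a human ovarian cancer cell line, grown in RPMI 1640 medium with fetal bovine serum. One group of 2 libraries came from cells exposed for 24 h to 80 µg/mL of 20(S)-Rg3, a ginsenoside (a saponin of ginseng), and the other of 2 libraries from control cells. Any vehicle given to the controls was not stated in the sources used here. Total RNA was depleted of ribosomal RNA and sequenced, and the labels call the RNA of each library pooled without saying whether the libraries of a group were separate cultures. The error behind every p-value is thus the variation among these 4 libraries, and it may be technical only.

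In an epithelial to mesenchymal transition, cells held together by E-cadherin junctions lose these junctions and gain a motile, fibroblast-like state. SNAIL and ZEB proteins are zinc finger factors and TWIST proteins are basic helix-loop-helix factors. All of them bind E-box DNA motifs, and SNAIL and ZEB proteins are known as repressors of the E-cadherin gene CDH1. Vimentin, N-cadherin, fibronectin and cadherin-11 are products that mesenchymal cells make and that are read as markers of the state. In ovarian carcinoma, cells that carry these markers are known for invasion and spread within the abdomen.

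The libraries held 24482846 to 30132517 counts. Small nucleolar, 7SL and mitochondrial RNA made up 31.55% and 31.51% of these in the Rg3 libraries and 32.92% and 33.32% in the controls. Levels are given as CPM, which is counts per megaread of the library after TMM scaling. Transcript lengths were not used here, so levels are compared between libraries and not between genes. Pearson's r of log2 CPM over the tested genes was 0.981 between the Rg3 libraries, 0.989 between the controls and 0.983 to 0.987 across groups. The epithelial ovarian marker list was only partly expressed. KRT7, KRT8 and KRT18, keratins of simple epithelia, lay between 1557 and 2817 CPM and the receptor gene ERBB2 between 45.2 and 53.5 CPM. EPCAM was at 0 counts in all 4 libraries, KRT19 had 2 counts in 1 control only, WT1 had at most 3 counts and PAX8 8 to 18 counts. The marker lists of other cell types each rested mainly on 1 gene. The fibroblast list summed to 39.5 and 30.1 CPM in Rg3 and 30.4 and 33.2 CPM in control libraries, of which PDGFRB gave 27.7 to 34.3 CPM. In that list 3 of 9 genes were tested (COL1A1, FAP and PDGFRB), all with a log2 fold change above 0, at a median of 0.38, and 0 were called. COL1A2, COL3A1 and LUM had 0 and 0 counts each with Rg3. In controls COL1A2 and LUM had 0 and 2 counts each and COL3A1 0 and 4. DCN went the other way from the tested genes, with 5 and 2 counts with Rg3 and 9 and 20 in controls. THY1 had 2 and 4 counts with Rg3 and 1 and 1 in controls, and PDGFRA had 0 in all 4 libraries. The leukocyte list summed to 18.2 and 11.5 CPM in Rg3 and 22.5 and 18.6 CPM in control libraries, nearly all of it CD68, with PTPRC at 0 to 3 counts and CD3E at 0. The endothelial list summed to 17.0 and 16.5 CPM in Rg3 and 18.8 and 19.8 CPM in control libraries, nearly all of it the cadherin gene CDH5, with KDR, CLDN5 and TEK at 0. The mesothelial list summed to 67.0 and 43.4 CPM in Rg3 and 64.3 and 54.7 CPM in control libraries, nearly all of it MSLN. MSLN is also in the epithelial ovarian marker list, so it does not separate these 2 cell types. Of tested epithelial ovarian markers 1 had a log2 fold change above 0 and 6 below, at a median of -0.15. It was 0 above and 2 below for leukocyte markers (median -0.56) and for mesothelial markers (-0.41). Endothelial markers had 1 above and 1 below (-0.078), and 0 were called in each of these lists. The part of other cells in the results below was not tested.

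None of the 9 tested genes was called different with Rg3, at an adjusted p under 0.05 in edgeR's quasi-likelihood test over all genes. In this test 0 were called higher, beside 0.0306% of all genes tested, and 0 were called lower, beside 0.0% of all genes. DESeq2 also called 0 of them, beside 37 higher and 17 lower over all genes. With limma voom it was 0 of them, beside 5 higher and 0 lower. An unadjusted p under 0.05 in the edgeR test was reached by 0 of the 9. Of all 16323 genes tested, 299 reached it as higher and 473 as lower. Log2 fold changes of Rg3 over control ran from -0.14 for TWIST2 to 0.70 for SNAI2, with 7 above 0 and 2 below. Their median was 0.059, against 0.014 over all genes tested, of which 52.5% were above 0. With 2 libraries a group, a factor at few counts such as SNAI2 had a 95% interval of the fold that ran from 0.906 to 2.90. For VIM, at 14745 counts or more, it ran from 0.826 to 1.28. In bulk RNA, fewer cells expressing a gene and less of its RNA per cell cannot be told apart.

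**Figure D1:**
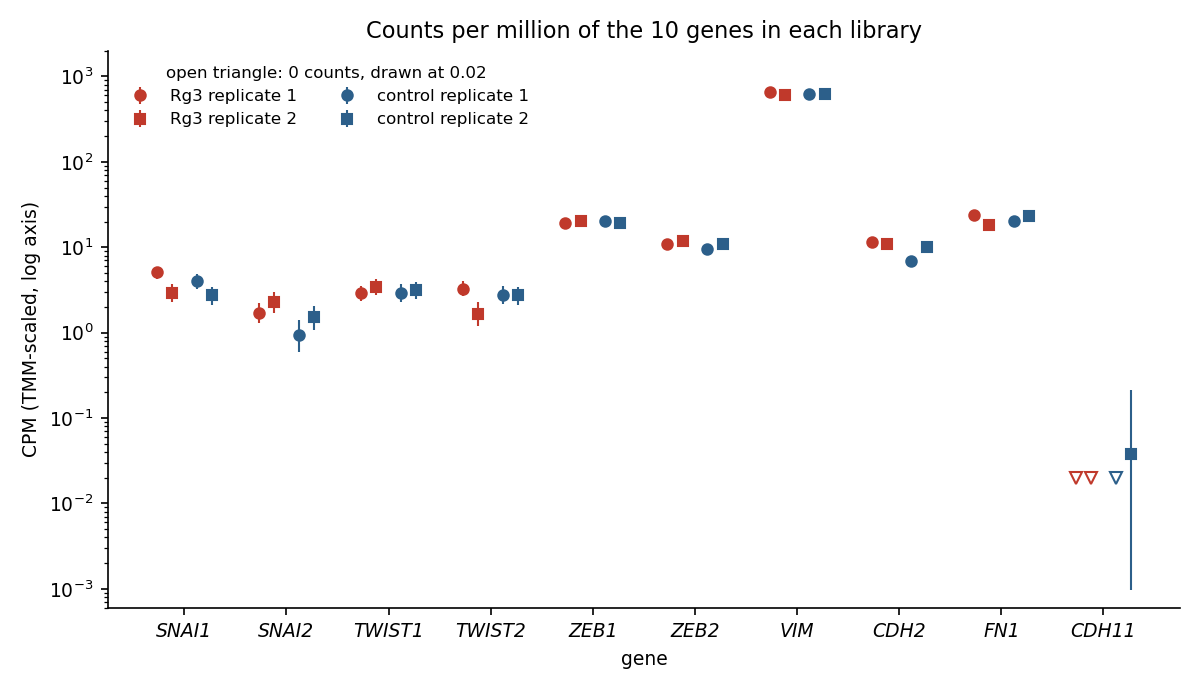
Level of each gene in each library, in CPM on a log axis, with exact 95% counting intervals as bars, Rg3 libraries in red left of the control libraries in blue, and open triangles for 0 counts. VIM lay between 612 and 664 CPM in all 4 libraries, whereas CDH11 had a single count in 1 control.

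SNAI1 and SNAI2 encode the SNAIL and SLUG proteins. SNAI1 had 5.07 and 2.91 CPM in the Rg3 libraries (156 and 70 counts) and 3.98 and 2.72 CPM in the controls (98 and 72 counts). Rg3 replicate 1 was the highest of the 4 libraries and Rg3 replicate 2 lay between the controls, so the groups overlapped. The means were 3.98 ± 1.53 CPM with Rg3 and 3.35 ± 0.886 CPM in controls (SD, n = 2 each), a log2 fold change of 0.26 (SE 0.33, edgeR adjusted p = 0.999). Counting error did not span the gap between the Rg3 libraries, whose exact 95% intervals were 4.30 to 5.93 CPM and 2.27 to 3.67 CPM. Leaving out Rg3 replicate 1 gave a log2 fold change of -0.20, and leaving out Rg3 replicate 2 one of 0.60. SNAI1P1, a pseudogene that could share reads with SNAI1, had 0 counts in all 4 libraries.

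SNAI2 had 1.72 and 2.28 CPM with Rg3 (53 and 55 counts) and 0.934 and 1.51 CPM in controls (23 and 40 counts). Both Rg3 libraries lay above both controls. The log2 fold change was 0.70 (SE 0.36), with means of 2.002 ± 0.398 CPM in Rg3 and 1.22 ± 0.410 CPM in control libraries (SD, n = 2 each). It was the largest of the 9, at an unadjusted p of 0.0912 and an adjusted p of 0.999 in edgeR's quasi-likelihood test. Leaving out a library gave log2 fold changes from 0.41, without control replicate 1, to 1.09, without control replicate 2. Counting error was large at this depth, since the exact 95% interval was 0.592 to 1.40 CPM in control replicate 1 and 1.29 to 2.25 CPM in Rg3 replicate 1. The related gene SNAI3 had 4 and 3 counts with Rg3 and 5 and 3 counts in controls, and was not tested.

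TWIST1 and TWIST2 encode closely related factors that also act in the mesoderm of the embryo. TWIST1 had 2.89 and 3.45 CPM with Rg3 and 2.92 and 3.14 CPM in controls. The Rg3 libraries lay on either side of the controls, and the log2 fold change was 0.059 (SE 0.24, edgeR adjusted p = 0.999). Its sign turned to -0.069 when Rg3 replicate 2 was left out, and it was 0.19 when Rg3 replicate 1 was. TWIST2 had 3.28 and 1.66 CPM with Rg3 (101 and 40 counts) and 2.76 and 2.72 CPM in controls (68 and 72 counts). The controls were nearly equal, and the Rg3 libraries lay above and below them. The exact 95% counting intervals of TWIST2 in the Rg3 libraries, 2.67 to 3.98 CPM and 1.19 to 2.26 CPM, did not meet. Its log2 fold change was -0.14 (SE 0.35, edgeR adjusted p = 0.999). With Rg3 replicate 1 left out it was -0.72, and with Rg3 replicate 2 left out it was 0.26. Within a library, where scaling cancels, the ratio of TWIST1 to TWIST2 counts was 0.882 and 2.06 with Rg3 and 1.06 and 1.15 in controls.

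**Figure D2:**
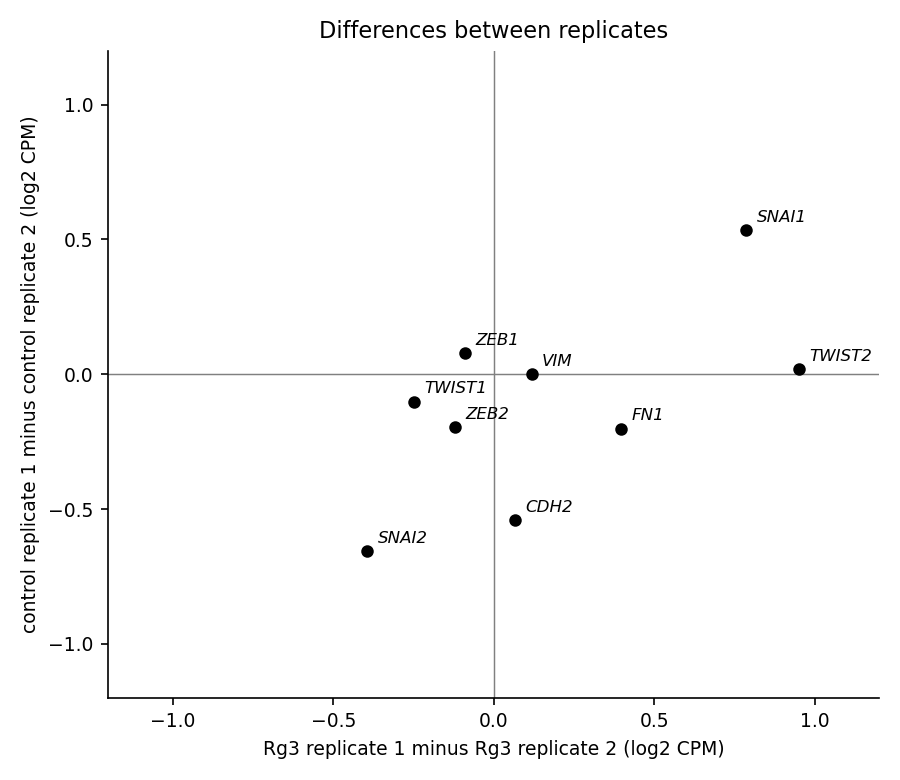
Difference between replicate 1 and replicate 2 in log2 CPM for the 9 tested genes, in the Rg3 group on the horizontal and in the control group on the vertical axis. TWIST2 lay at 0.95 in the Rg3 group and 0.018 in controls, and SNAI1 at 0.79 and 0.53.

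The spread between replicates differed by gene, as the plot of replicate differences shows. Over all genes tested the median absolute difference was 0.294 on the log2 scale between the Rg3 libraries and 0.139 between the controls. The difference between the Rg3 libraries was larger than that of TWIST2 in 5.77% of all genes tested and larger than that of SNAI1 in 9.83%. Between the controls it was larger than that of SNAI2 in 6.67% and than that of CDH2 in 9.50% of all genes tested. Low counts widen such differences, and these shares were not matched for level. Rg3 replicate 1 was also the deepest library, at 30132517 counts. COL1A1, a fibroblast marker picked after its values were seen, also stood apart there. It had 4.67 and 1.62 CPM with Rg3 and 1.95 and 2.27 CPM in controls. The other tested fibroblast markers were mixed. PDGFRB was highest there too, at 34.3 and 27.8 CPM with Rg3 and 27.7 and 29.7 CPM in controls. FAP was not, at 0.325 and 0.457 CPM with Rg3 and 0.406 and 0.189 CPM in controls. The part of depth and of other cells in these differences was not tested.

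ZEB1 and ZEB2 are zinc finger and homeobox factors. ZEB1 had 19.2 and 20.4 CPM with Rg3 and 20.1 and 19.1 CPM in controls. The 4 values lay close together and the groups overlapped. The log2 fold change of ZEB1 was 0.012 (SE 0.15), and the 95% interval of the fold ran from 0.791 to 1.29 (edgeR adjusted p = 0.999). The sign turned with upper-quartile scaling (-0.017), without Rg3 replicate 2 (-0.032) and without control replicate 2 (-0.024).

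ZEB2 had 11.0 and 12 CPM with Rg3 and 9.54 and 10.9 CPM in controls. Both Rg3 libraries lay above both controls, by a narrow margin that was gone with upper-quartile scaling. Its log2 fold change was 0.17 (SE 0.18, edgeR adjusted p = 0.999), and it was 0.084 to 0.27 over the fits that left out a library. The ratio of ZEB1 to ZEB2 counts was 1.73 and 1.70 with Rg3 and 2.11 and 1.74 in controls.

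MicroRNAs of the miR-200 family are known to bind ZEB1 and ZEB2 transcripts, and the ZEB proteins in turn to repress the genes of these microRNAs. The mature forms below are shown because they fall into groups by their seed, the bases by which a microRNA finds its target. They are RefSeq sequences from GRCh38.p14, written 5′ to 3′ with the seed (bases 2 to 8) in capitals.
hsa-miR-200b-3p: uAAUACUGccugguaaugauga
hsa-miR-200c-3p: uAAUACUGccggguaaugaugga
hsa-miR-429: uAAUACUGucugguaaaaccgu
hsa-miR-200a-3p: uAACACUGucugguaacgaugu
hsa-miR-141-3p: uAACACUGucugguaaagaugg
The first 3 share the seed AAUACUG and the other 2 share AACACUG. MIR200A, MIR200B, MIR200C and MIR429, the genes of 4 of them, had 0 counts in every library, which allows up to 3 counts, or 0.0974 to 0.125 CPM. MIR141 had 0 and 0 counts with Rg3 and 1 and 1 in controls. MIR205, whose microRNA also targets ZEB transcripts, and its host gene MIR205HG had 0 counts. MIR34A, whose microRNA is known to target SNAI1, had 10 and 7 counts with Rg3 and 8 and 11 counts in controls. The library protocol in the labels fragments total RNA and names no small RNA step, so these counts are not read as levels of mature microRNAs.

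Antisense genes lie beside 3 of the members. ZEB1-AS1, transcribed from the ZEB1 promoter region in the other direction, had 0.552 and 0.664 CPM with Rg3 and 0.812 and 1.17 CPM in controls (17 and 16, against 20 and 31 counts). Both Rg3 libraries lay below both controls, with a log2 fold change of -0.71 (SE 0.40) and an edgeR adjusted p of 0.999. VIM-AS1 had 0.584 and 0.540 CPM with Rg3 and 0.568 and 0.416 CPM in controls, and ZEB2-AS1 had 0 counts. Of 12 antisense and microRNA genes with a row, 3 were tested, with 2 log2 fold changes above 0 and 1 below, at a median of 0.20, and 0 were called. That median was 0.44 without control replicate 1 and -0.011 without control replicate 2. The ends were ZEB1-AS1 and SNAI3-AS1 (0.81), which had 71 and 32 counts with Rg3 and 28 and 25 counts in controls. The strand setting of the counting was not given in the sources used here, so reads of a gene and its antisense partner cannot be told apart where they overlap.

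The E-box CAGGTG, whose reverse complement is CACCTG, is the form that SNAIL and ZEB proteins are known to prefer. RefSeq promoter windows of GRCh38.p14, from 250 bases before to 50 after a transcript start, were matched for 6 of the 10 genes (TWIST2, ZEB1, ZEB2, VIM, CDH2 and FN1), 13 windows in all. On either strand the motif was in 2 of these 13 windows, both of ZEB1, which has 7. Of all 35116 windows 20.6% held it. The ZEB1 window with 3 copies is shown because it is the one in which these motifs cluster, at chr10:31318966-31319265 on the plus strand, 5′ to 3′, with each copy in capitals.
ZEB1: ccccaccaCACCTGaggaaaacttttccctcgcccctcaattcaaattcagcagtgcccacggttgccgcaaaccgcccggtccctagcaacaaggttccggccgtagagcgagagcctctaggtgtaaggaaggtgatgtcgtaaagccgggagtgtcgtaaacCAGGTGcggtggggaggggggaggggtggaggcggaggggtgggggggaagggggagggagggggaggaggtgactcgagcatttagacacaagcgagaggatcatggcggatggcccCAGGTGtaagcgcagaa
A match says only that these letters are in the window, and binding was not measured.

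VIM encodes vimentin, the intermediate filament of mesenchymal cells. It had 664 and 612 CPM with Rg3 and 622 and 622 CPM in controls. The controls were nearly equal and the Rg3 libraries lay on either side of them. The means were 638 ± 36.8 CPM with Rg3 and 622 ± 0.0494 CPM in controls (SD, n = 2 each). The log2 fold change was 0.038 (SE 0.13, edgeR adjusted p = 0.999), and -0.018 without Rg3 replicate 1. VIM took 0.0679% and 0.0600% of all counts in the Rg3 libraries (exact 95% intervals 0.0670% to 0.0688% and 0.0590% to 0.0610%), against 0.0625% and 0.0614% in the controls. The pseudogene VIMP1 had 6 and 5 counts with Rg3 and 9 and 7 counts in controls, few beside the 14745 to 20458 counts of VIM. In the same libraries the epithelial keratin gene KRT18 had 1557 and 2248 CPM with Rg3 and 2302 and 2817 CPM in controls. Both Rg3 libraries were below both controls for KRT18, at a log2 fold change of -0.43 and an edgeR adjusted p of 0.999. KRT18 was picked after its values were seen. The groups overlapped for the other tested keratin genes, KRT7 (-0.037), KRT8 (-0.15) and KRT80 (0.19).

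CDH2 encodes N-cadherin, which takes the place of E-cadherin in many carcinoma cells that go through the transition. It had 11.4 and 10.9 CPM with Rg3 (351 and 262 counts) and 6.82 and 9.95 CPM in controls (168 and 263 counts). Both Rg3 libraries lay above both controls, and the distance from control replicate 2 was small. The means were 11.1 ± 0.366 CPM with Rg3 and 8.39 ± 2.22 CPM in controls (SD, n = 2 each), a log2 fold change of 0.41 (SE 0.22). The 95% interval of the fold was 0.923 to 1.91 (edgeR adjusted p = 0.999, unadjusted p = 0.109). The log2 fold change was 0.17 without control replicate 1 and 0.71 without control replicate 2.

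CDH1, the E-cadherin gene, had 2.44 and 2.12 CPM with Rg3 (75 and 51 counts) and 2.07 and 1.85 CPM in controls (51 and 49 counts). Its log2 fold change was 0.22 (SE 0.27), of the same sign as that of CDH2, and did not pass (edgeR adjusted p = 0.999). The ratio of CDH2 to CDH1 counts within a library was 4.66 and 5.10 with Rg3 and 3.27 and 5.32 in controls. The Rg3 values lay between those of the controls, and the mean log2 ratio with Rg3 minus that of the controls was 0.22 (exact two-sided permutation test, p = 1.0). With 4 libraries the smallest p this test can give is 0.333. Without control replicate 1 the difference was -0.13.

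CDH11 encodes cadherin-11, a cadherin of mesenchymal cells such as osteoblasts and fibroblasts. It had 0 and 0 counts with Rg3 and 0 and 1 counts in controls. A count of 0 allows up to 3 counts a library, which is 0.0974 and 0.125 CPM in the Rg3 libraries and 0.122 CPM in control replicate 1, so no fold is given. Among the other classical cadherins and the catenins, 11 of 21 genes had a count and 8 were tested, with 3 log2 fold changes above 0 and 5 below. Their median was -0.082, with CDH1 and CDH5 (-0.21) at the ends, and 0 were called in either direction. CDH5, the cadherin of blood vessel endothelium, had 16.2 and 16.2 CPM with Rg3 and 17.9 and 19.5 CPM in controls. CTNNB1, the beta-catenin that binds cadherin tails, had 307 and 318 CPM with Rg3 and 302 and 308 CPM in controls.

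FN1 encodes fibronectin, a matrix glycoprotein that cells bind through integrins. It had 23.8 and 18.1 CPM with Rg3 and 20.4 and 23.5 CPM in controls. The highest and the lowest of the 4 libraries were both from the Rg3 group. Its log2 fold change was -0.068 (SE 0.18, edgeR adjusted p = 0.999). It was -0.28 without Rg3 replicate 1, 0.12 without Rg3 replicate 2 and 0.039 without control replicate 2. ITGA5 and ITGB1 encode the subunits of the main fibronectin receptor. ITGA5 had 48.5 and 33.7 CPM with Rg3 and 48.5 and 41.6 CPM in controls, and ITGB1 had 188 and 237 CPM with Rg3 and 221 and 201 CPM in controls. Of 17 genes of fibronectin receptors and assembly 14 were tested, 5 with a log2 fold change above 0 and 9 below, at a median of -0.040, and 0 were called. The ends were ITGAV (0.18), an integrin subunit, and ITGB3 (-1.0), which had 13 and 6 counts with Rg3 and 22 and 13 counts in controls.

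**Figure D3:**
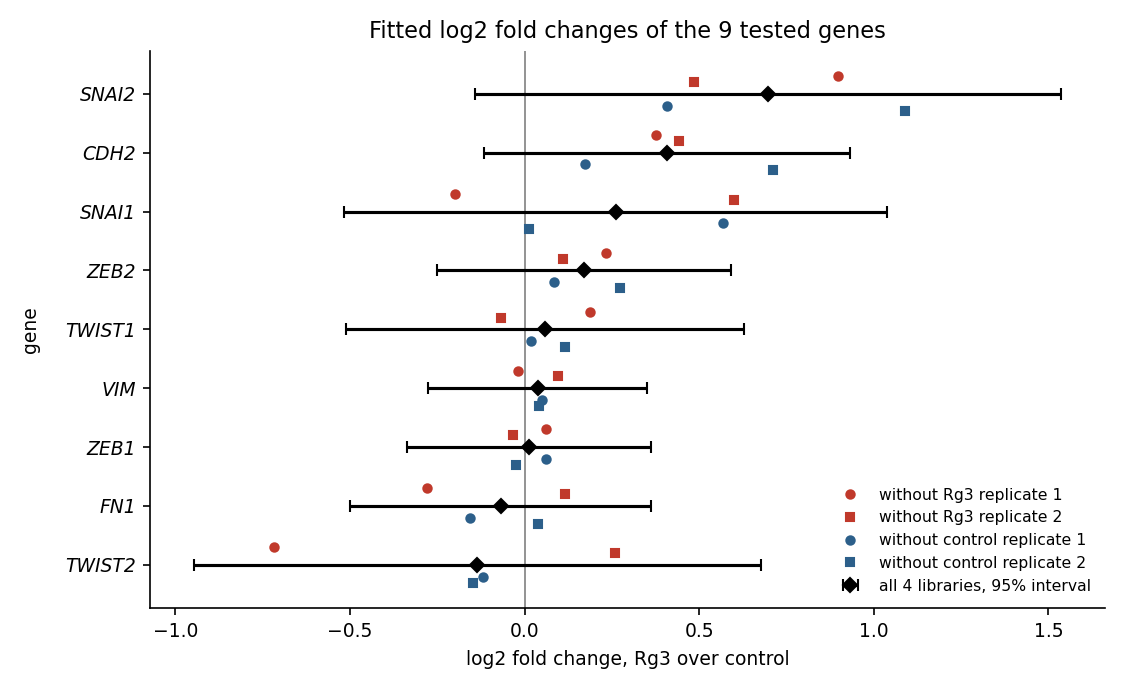
Log2 fold change of Rg3 over control for the 9 tested genes, with 95% intervals from edgeR (black) and the estimates with 1 library left out (red and blue). Every interval included 0, and the estimates of SNAI1, TWIST1, TWIST2, VIM, ZEB1 and FN1 fell on both sides of 0.

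Both Rg3 libraries lay above both controls for 3 of the 9 tested genes (SNAI2, ZEB2 and CDH2), which is 33.3%, and for 15.3% of all genes tested. None of the 9 had both Rg3 libraries below both controls, as 17.0% of all genes tested did. The other 6 overlapped. With 9 genes, and with the margin of ZEB2 lost under upper-quartile scaling, these counts are given as a description. Over the 13 alternative fits the lowest adjusted p of any of the 9 was 0.210.

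**Figure D4:**
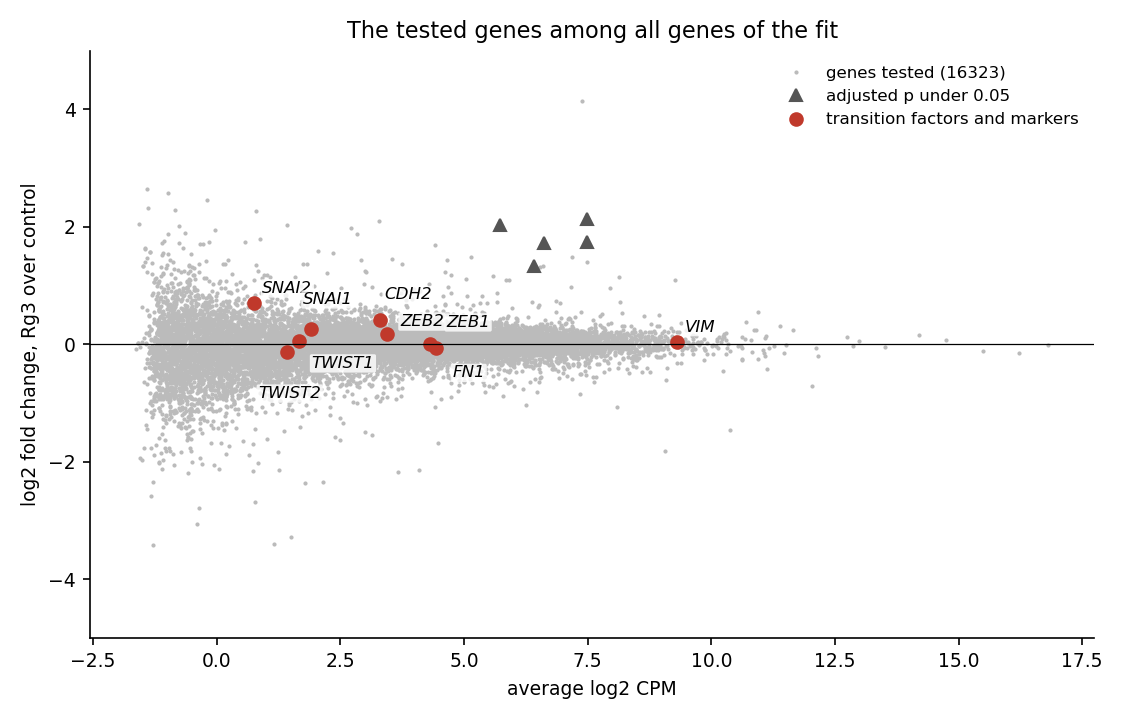
Average level (log2 CPM) and log2 fold change of Rg3 over control for all 16323 tested genes in grey, with the 9 transition genes in red and the 5 genes with an adjusted p under 0.05 as triangles. The red points lie between -0.14 and 0.70, within the grey cloud at their level.

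The same fit was read for the genes that act before, with and after these factors. In the TGF-beta and BMP pathway, which induces SNAIL and ZEB genes in many epithelia, 29 of 31 genes were tested. Of these 16 were above 0 and 13 below, at a median of 0.037, and 0 were called. The ligand gene TGFB1 had 3 and 3 counts with Rg3 and 2 and 12 counts in controls, whereas TGFB2 had 5.78 and 5.19 CPM with Rg3 and 4.63 and 4.43 CPM in controls. The receptor gene TGFBR1 had 21.6 and 20.1 CPM with Rg3 and 17.9 and 17.0 CPM in controls, at a log2 fold change of 0.26 (SE 0.15, edgeR adjusted p = 0.999). TGFBR2 (-0.081), the signal transducer SMAD3 (-0.080) and the inhibitor SMAD7 (-0.16) had log2 fold changes below 0. The ends of this list were the receptor gene ACVR1 (0.53) and the ligand gene BMP2 (-0.26).

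In WNT, NOTCH and growth factor pathways 23 of 26 genes were tested, 13 above 0 and 10 below, at a median of 0.033, with 0 called. The ends were both NOTCH pathway genes, the ligand JAG1 (0.34) and the target HEY1 (-0.89). HEY1 had 2.34 and 2.24 CPM with Rg3 and 4.22 and 4.28 CPM in controls (edgeR adjusted p = 0.770). Of 20 other transition factors 11 were tested, 6 above 0 and 5 below, at a median of 0.038 and between TEAD4 (0.27) and TBX3 (-0.26), with 0 called.

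Genes of ubiquitin ligases, deubiquitinases, kinases and corepressors that act on or with the SNAIL, TWIST and ZEB proteins had a row for 24 of 25 listed. Of 23 tested 13 were above 0 and 10 below, at a median of 0.042, and 0 were called. GSK3B encodes a kinase that marks SNAIL for degradation, and it had the highest log2 fold change of the list, 0.38 (SE 0.14). It had 59.2 and 52.4 CPM with Rg3 and 41.9 and 43.9 CPM in controls, at an unadjusted p of 0.0269 and an edgeR adjusted p of 0.999. The lowest was USP27X (-0.51), the gene of a deubiquitinase known to stabilise SNAIL, at 21 and 22 counts with Rg3 and 24 and 34 counts in controls. The corepressor gene CTBP1 had 98.7 and 77.7 CPM with Rg3 and 87.4 and 77.2 CPM in controls.

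Among mesenchymal and matrix genes outside the 10, 33 of 44 were tested, 12 above 0 and 21 below, at a median of -0.089, and 0 were called. SPARC, a matrix protein gene, had 53.1 and 54.8 CPM with Rg3 and 62.4 and 73.4 CPM in controls, at a log2 fold change of -0.33 (SE 0.14, unadjusted p = 0.0496, edgeR adjusted p = 0.999). The ends were NT5E (0.65), an ectonucleotidase gene, and ACTA2 (-1.01), the smooth muscle actin gene. NT5E had 11.5 and 11.1 CPM with Rg3 and 6.74 and 7.68 CPM in controls, and ACTA2 had 36 and 40 counts with Rg3 and 60 and 85 counts in controls. The edgeR adjusted p was 0.898 for NT5E and 0.921 for ACTA2.

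Epithelial genes, several of which the factors repress, had 30 of 38 measured members with a count and 21 tested. Of these 8 were above 0 and 13 below, at a median of -0.073, and 0 were called. The median was 0.069 without Rg3 replicate 2. The adhesion gene EPCAM and the splicing factor gene ESRP1 had 0 counts in all 4 libraries. The ends were AP1M2 (0.82), a clathrin adaptor subunit gene of epithelial cells, and the claudin gene CLDN7 (-0.89). AP1M2 had 52.0 and 53.2 CPM with Rg3 and 28.7 and 30.9 CPM in controls (edgeR adjusted p = 0.226), and CLDN7 had 15.8 and 21.6 CPM with Rg3 and 31.0 and 38.4 CPM in controls (edgeR adjusted p = 0.570). The list of intermediate filament genes other than VIM also held PLEC (0.18), the gene of a protein that links such filaments. Of these genes 11 were tested, 6 above 0 and 5 below, at a median of 0.048, with 0 called. Their ends were SYNM (0.32) and DES (-1.62). DES had 10 and 6 counts with Rg3 and 24 and 22 counts in controls. It passed the low-count filter only through the controls, where it was higher. LMNA, the nuclear lamin gene, had 1037 and 700 CPM with Rg3 and 833 and 751 CPM in controls.

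Groups that did not overlap were counted in every list, beside 15.3% of all genes tested with both Rg3 libraries above both controls and 17.0% with both below. In mesenchymal and matrix genes 1 of 33 lay above and 14 below, and in the TGF-beta and BMP pathway 10 of 29 lay above and 4 below. In epithelial genes 6 of 21 lay above and 6 below, and in the turnover and corepressor genes 5 of 23 above and 4 below. The WNT, NOTCH and growth factor pathways had 0 of 23 above and 4 below, and other transition factors 2 of 11 above and 0 below. In the intermediate filament list, PLEC included, 1 of 11 lay above and 3 below, and of cadherins and catenins 1 of 8 above and 2 below. Fibronectin receptors and assembly had 0 of 14 above and 2 below, and antisense and microRNA genes 1 of 3 above and 1 below.

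The list medians moved when 1 library was left out. The median of mesenchymal and matrix genes stayed below 0, at -0.21 when Rg3 replicate 1 was left out and at -0.060 when Rg3 replicate 2 was, and that of cadherins and catenins stayed between -0.063 without control replicate 2 and -0.016 without control replicate 1. That of the 9 transition genes stayed above 0, and those of the other lists crossed 0. Without Rg3 replicate 1 the median was -0.074 for the TGF-beta and BMP pathway, -0.19 for the WNT, NOTCH and growth factor pathways, -0.13 for other transition factors, -0.12 for intermediate filaments and -0.22 for fibronectin receptors and assembly. Without Rg3 replicate 2 it was 0.12 for the TGF-beta and BMP pathway, 0.15 for the WNT, NOTCH and growth factor pathways, 0.084 for other transition factors, -0.021 for intermediate filaments and 0.064 for fibronectin receptors and assembly. The median of turnover and corepressor genes was between -9.7e-05 without Rg3 replicate 1 and 0.062 without control replicate 1. The median of the 9 transition genes was 0.061 when Rg3 replicate 1 was left out and 0.12 when Rg3 replicate 2 was.

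**Figure D5:**
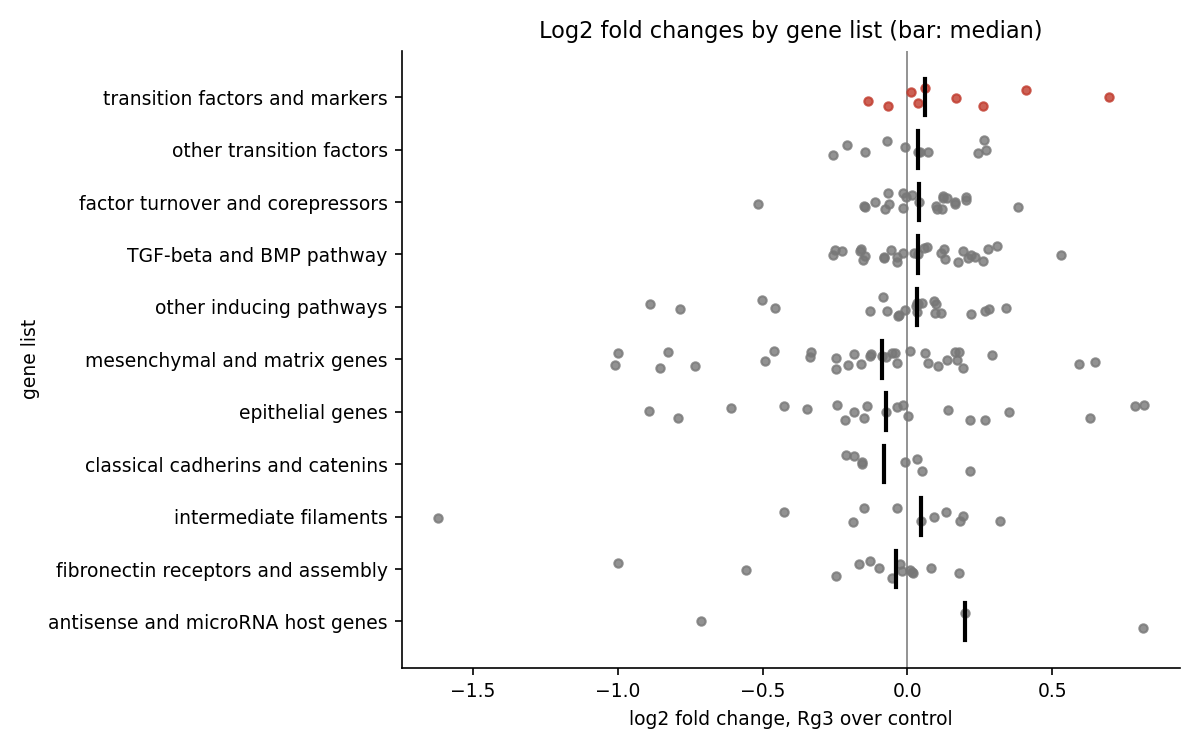
Log2 fold changes of Rg3 over control for the tested genes of the 9 transition genes and of 10 other lists, without the cell type marker lists, with the list median as a bar. In these lists the medians ran from -0.089 for mesenchymal and matrix genes to 0.20 for the 3 tested antisense and microRNA genes, and that of the transition genes was 0.059.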

How the data were processed

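The 4 libraries were 2 of SKOV3 cells given 20(S)-Rg3 and 2 of control cells, grouped by the treatment label. The deposited counts are whole numbers of reads for each gene symbol, and the authors had not normalised them. GRCh37 is the build named in the submitters' processing notes. For the aligner, the counter, the annotation and the strand, the entry is not given in the sources used here. The series text and the library protocol in the labels name instruments of different makers.

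Genes were filtered with filterByExpr (minimum count 10, minimum total 15), scaled by TMM and tested with edgeR 4.0.16 in R 4.3.3, by the quasi-likelihood test on treatment alone. Benjamini-Hochberg adjustment ran over all genes tested, with a threshold of 0.05. The F statistic of each gene gave the standard error and 95% interval of its log2 fold change. CPM values are counts over TMM-scaled library sizes, and log2 CPM used a prior count of 2. DESeq2 1.42.0, limma 3.58.1 (voom), other scalings, other low-count filters, a replicate block and leaving out each library were alternatives. A further alternative left out small nucleolar, 7SL and mitochondrial RNA. The test was tested on simulated data, with changed genes drawn from all genes tested. It recovered 12.7% of 1.5-fold, 53.2% of 2-fold and 92.9% of 4-fold changes. The simulated spread between replicates followed the trend with level alone and was the same in both groups. Single genes with a wider spread, and the wider spread between the Rg3 libraries, were not simulated, so these shares may be too high for such genes. Counting intervals are exact binomial (Clopper-Pearson) and, like the floor of 3 counts, cover counting error only. Within-library ratios had 0.5 added to each count, and only CDH2 over CDH1 was tested. The other ratios, the markers' single values and KRT18 were chosen for the text after their values were seen.

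The 10 genes and all lists were chosen with earlier results of these data known. Of other genes, a rule named a set of regulators and partners whatever their values, and the ends of each list. One gene that the rule named is not reported here. Promoter and microRNA sequences came from RefSeq tables of GRCh38.p14, matched by symbol.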

Additional observations from a re-analysis of the deposited data

How the results depend on the processing

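None of the 9 tested genes was called in any of the 13 alternative fits, and the median log2 fold change of the 9 tested genes stayed between 0.031 and 0.12. The counts over all genes, 5 higher and 0 lower in the edgeR test, were less stable. They were 90 higher and 124 lower without a low-count filter, 37 and 17 with DESeq2, and 5 and 2 with upper-quartile scaling. Leaving out 1 library gave 31 to 428 higher and 18 to 456 lower, where the lone library of a group was assumed to vary like the others. The cause was not tested.

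With the replicate number as a block (replicate block) edgeR called 69 genes higher and 86 lower, and 0 of the 9 genes. The labels do not say that equal numbers share a culture or day, and the correlation over genes of the differences between replicates 1 and 2 in the groups was 0.149. With only 2 pairs this does not settle whether the numbers pair the samples, and they were treated as names.

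Signs turned for single genes with small log2 fold changes. Over the fits without 1 library these ran from -0.20 to 0.60 for SNAI1, -0.069 to 0.19 for TWIST1, -0.72 to 0.26 for TWIST2, -0.032 to 0.062 for ZEB1, -0.018 to 0.097 for VIM and -0.28 to 0.12 for FN1. ZEB1 was at -0.017 with upper-quartile scaling. The difference in the log2 ratio of CDH2 to CDH1 ran from -0.13 to 0.57. SNAI2, ZEB2, CDH2 and CDH1 kept a positive sign in all 13. Of 129 list medians under an alternative 101 stayed within the spread between replicates and 28 moved beyond it. SNAI1, SNAI2, TWIST1, TWIST2 and CDH1 had 23 to 156 counts a library and CDH11 at most 1, which limits what could be detected for them.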
